A study of Mus musculus with 4 samples.

Results

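The 10 genes described here are Atf3, Atf4, Atf5, Ddit3, Trib3, Chac1, Asns, Nupr1, Sesn2 and Ppp1r15a, the transcription factors of the integrated stress response and targets that these factors are known for. They were taken by symbol from the gene expression files of injured mouse retinas, and all 10 were found among the 22558 gene symbols of the series. The values came from 4 RNA-seq libraries of whole retina, 1 for each group: control and DTA retinas at day 1 and at day 5 after injury. All mice were about 8 weeks old, of mixed C57BL/6 and 129 background, and carried R26R-DTA, an allele that makes the A fragment of diphtheria toxin once Cre recombinase has acted. The control mice were +/+; R26R-DTA/+ and thus had the toxin allele without Cre. The DTA mice were Msi1-CreERT2/+; R26R-DTA/+, in which a ligand-dependent Cre is made under the control of the gene for the RNA-binding protein Musashi 1. The labels do not say in which retinal cells Cre acted, how it was switched on, or how many mice went into a library. The deposited table for DTA at day 1 lists 5799 symbols and holds only Atf3 and Ddit3 of the 10, so the other 8 genes have 3 values each.

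The integrated stress response begins when kinases that sense stress phosphorylate the alpha subunit of the initiation factor eIF2. Translation then falls in general, while the mRNA of ATF4 is translated more through short upstream reading frames. ATF4 switches on genes for amino acid supply, for feedback inhibitors and, with CHOP (the product of Ddit3), for cell death. Diphtheria toxin fragment A blocks protein synthesis at a later step, by inactivating elongation factor 2 (EEF2). The comparison of DTA with control therefore asks what this pathway's transcripts look like in a retina where the toxin allele has been switched on.

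The promoter sequences are shown because ATF4 acts with C/EBP proteins on a known composite element, searched here as the letters TGATGNAA on both strands. RefSeq promoters from 250 bases before to 50 bases after a gene's start (table build GRCm38.p6) were found for all 10 genes, in 11 entries, since Atf5 has a pair of starts. The element was present in 5 of the 10 genes, through 5 of their 11 entries, against 3.97% of all 32851 promoter entries. The 10 genes were picked as factors and known targets of this pathway, so the excess cannot be read as a finding. Windows around each match follow, 5′ to 3′ on the gene's strand, with the match in capitals. The matches in Atf3, Nupr1, Chac1 and Trib3 are the element on the opposite strand.
Atf3: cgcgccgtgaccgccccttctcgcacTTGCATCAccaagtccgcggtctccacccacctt
Nupr1: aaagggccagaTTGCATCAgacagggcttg
Chac1: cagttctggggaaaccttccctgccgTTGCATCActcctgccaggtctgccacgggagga
Asns: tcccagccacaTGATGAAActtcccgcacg
Trib3: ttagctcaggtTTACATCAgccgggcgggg

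Each whole promoter was found once, by exact match, on its chromosome in the mm9 genome (NCBIM37), the build that the submitters' notes name. On mm9 these windows lie at chr1:193007289-193007348 (Atf3, minus strand), chr7:133769076-133769105 (Nupr1, minus), chr2:119176759-119176818 (Chac1, plus), chr6:7643214-7643243 (Asns, minus) and chr2:152169764-152169793 (Trib3, minus). The first base of the match was at -110 for Atf3 and Nupr1, -193 for Chac1, -23 for Asns and 15 for Trib3, counted from the RefSeq start. GENCODE transcripts of Nupr1 and Asns reach upstream of the RefSeq start, into these windows or their near flanks. The Trib3 window lies just downstream of the RefSeq start. Atf3, Nupr1 and Chac1 share the same 8 letters, TTGCATCA.

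The cAMP response element, which other ATF and CREB dimers bind, was searched as TGACGTCA and was present in 1.79% of all promoters. Among the 10 genes it was found in Ppp1r15a, at -12 (window chr7:52781639-52781676, minus strand). The AP-1 site was searched as TGANTCA, present in 7.81% of all promoters, and was found in Ddit3 at -242 (window chr10:126727599-126727639, plus strand).
Ppp1r15a: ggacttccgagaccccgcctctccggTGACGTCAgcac
Ddit3: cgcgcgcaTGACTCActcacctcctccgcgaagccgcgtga
Atf4, Atf5 and Sesn2 had none of these letter strings in this window. A match describes the sequence only; binding was not measured.

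Levels are given as FPKM, a fragment count divided by transcript length and library size, so that genes can be compared per length. Differences are taken on log2(FPKM + 1), which understates changes of low genes. With 1 library a group there is no spread between mice and no test, so a gene is called by size: a difference of at least 1, FPKM of at least 5 in a library compared and, for DTA against control, a difference larger in size than that between the 2 controls for the same gene. Low values read as single fragments put the depths at about 74000000 fragments for control and 99100000 for DTA at day 1, and at about 35500000 and 28900000 for these at day 5. Rod, cone, Müller glia, bipolar, amacrine and ganglion cell markers were all present, as the retina label requires. The controls differed in lens, pigment epithelium and red blood cell transcripts. The 5 lens markers summed to 1036 FPKM at day 1 and 151 at day 5, and 5 pigment epithelium markers to 149 and 37.5. The 3 red blood cell markers summed to 67.2 and 27.0 FPKM.

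In the control retinas the 10 genes spanned from under 1 to over 100 FPKM. Atf4 was the highest, with 107 FPKM at day 1 and 105 at day 5, at percentiles 98.3 and 98.4 of all genes. Ddit3 came next with 40.9 and 41.2 FPKM. Atf4 alone made up 54.6% of the summed FPKM of the 10 genes in the earlier control and 55.6% in the later.

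Below these came Asns, Ppp1r15a, Atf5, Nupr1 and Sesn2, between 4.70 and 15.5 FPKM. Their order was not firm: Ppp1r15a and Atf5 changed places between the controls, and so did Nupr1 and Sesn2. Atf3, Trib3 and Chac1 were the lowest 3 in both controls, from 0.632 to 3.76 FPKM. None of the 10 genes was called between the controls, where 0.858% of the 9321 genes tested were called higher and 1.72% lower at day 5. The median difference of the 10 was -0.01, beside -0.06 for all genes tested. The widest were Asns, at 15.5 and 9.46 FPKM (difference -0.66), and Atf3, at 2.30 and 3.76 FPKM (0.53).

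**Figure D1:**
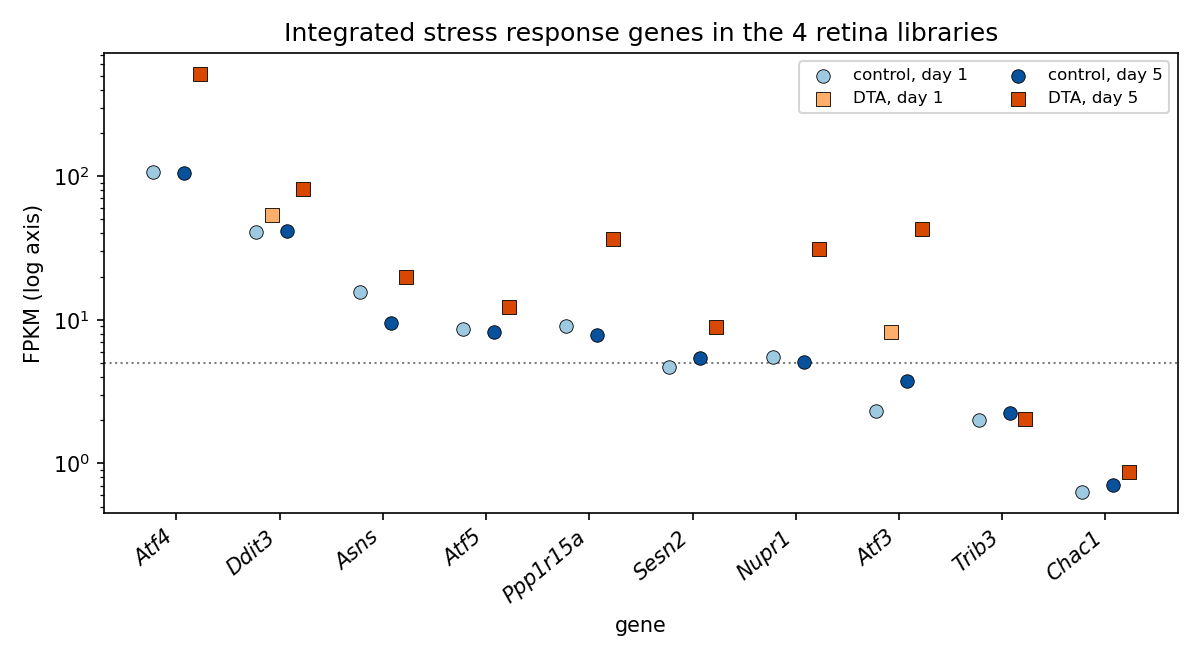
Level of each gene in FPKM (log axis) in the 4 libraries, ordered by the day 5 control; circles are control and squares DTA libraries, pale for day 1 and dark for day 5, and the dotted line marks 5 FPKM. Atf4, Ppp1r15a, Nupr1 and Atf3 stand well above both controls in the day 5 DTA library, while Trib3 and Chac1 lie beside them.

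At day 5, 4 of the 10 genes were called higher in DTA than in control and none lower: Atf4, Atf3, Nupr1 and Ppp1r15a. The background is 6.74% of 9895 genes called higher and 1.77% called lower. Of the 10 genes, 8 reached 5 FPKM; Trib3 and Chac1 did not and could not be called. The median difference of the 10 was 0.97, beside 0.26 over all genes tested and 0.06 over all genes with an estimate. FPKM are relative to the whole library, and the median of all genes was not at 0. Scaling by the median ratio brought the median of all genes tested to 0.03 and changed the calls over all genes from 667 higher and 175 lower to 419 higher and 248 lower. The same 4 genes were called after that scaling, and for each of the 10 genes the scaled difference is given beside the unscaled one below. The authors' upper bound lay below the FPKM itself in day 5 DTA for all 4 called genes and for Asns. It was 465 FPKM for Atf4 at 515, 24.8 for Nupr1 at 31.3, 41.3 for Atf3 at 42.7 and 36.1 for Ppp1r15a at 36.8, so the deposited intervals give no usable error for these values.

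Atf4, the transcription factor whose translation the pathway controls (chr15:80085614-80087971), stood at 107 and 105 FPKM in the controls of day 1 and day 5 and at 515 FPKM in day 5 DTA. The DTA library thus stands 4.90-fold above its own control and 4.81-fold above the other, a difference of 2.28 that was 2.045 after scaling. It is the largest gain in absolute level among the 10, and Atf4 reached percentile 99.9 of all genes. Its signed difference ranked 160 from the highest among the 9895 genes tested.

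Atf3, a factor of the same leucine zipper class that is induced by many stresses (chr1:192994176-193007212), had the largest difference of the 10. Its controls read 2.30 and 3.76 FPKM at day 1 and day 5, and the DTA libraries 8.16 and 42.7. Each DTA library lay above both controls. At day 5 the ratio was 11.4 and the difference 3.20, or 2.98 after scaling, at rank 96 from the highest signed difference. In the order of levels Atf3 was eighth of the 10 in both controls and stood behind only Atf4 and Ddit3 in day 5 DTA.

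Atf5, a relative of ATF4 linked to mitochondrial stress (chr7:52067626-52072028), stood at 8.60 and 8.19 FPKM in the controls and 12.3 in day 5 DTA. The difference of 0.54 was not called and was 0.32 after scaling. The gene overlaps Nup62 by 571 bases and Il4i1 by 289 bases, both on the opposite strand. Nup62 differed by 0.55 at day 5 and Il4i1 by -0.52. No source used here says whether the counting used strand, so fragments in the overlaps cannot be assigned with certainty.

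Ddit3, which encodes the pro-death factor CHOP (chr10:126727849-126733344), read 40.9 and 41.2 FPKM in the controls of day 1 and day 5, and 53.2 and 81.0 in the DTA libraries. The 2 controls were nearly equal and both DTA libraries lay above them. The day 5 difference of 0.96, a ratio of 1.97, lay just under the size rule and was 0.72 after scaling. The 3′ end of Ddit3 overlaps that of the methionyl-tRNA synthetase gene Mars by 68 bases on opposite strands. Mars differed by 0.87 at day 5.

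Among targets in stress adaptation, Nupr1 and Ppp1r15a were called. Nupr1, a small chromatin-associated stress protein (chr7:133766760-133768984), stood at 5.54 and 5.12 FPKM in the controls and 31.3 in day 5 DTA. That is a ratio of 6.11 and a difference of 2.40 (2.175 after scaling). Ppp1r15a encodes GADD34, the phosphatase subunit that reverses the phosphorylation of eIF2 alpha (chr7:52778288-52781638). It stood at 9.0 and 7.81 FPKM in the controls and 36.8 in day 5 DTA, a ratio of 4.71 and a difference of 2.1 (1.87 after scaling). It overlaps Tulp2 by 717 bases on the opposite strand, and Tulp2 was at or under 0.0703 FPKM in the 3 libraries.

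Asns, the asparagine synthetase (chr6:7625171-7643182), read 15.5 and 9.46 FPKM in the controls of day 1 and day 5 and 19.7 in day 5 DTA. Its difference of 0.99, a ratio of 2.09, lay just under the size rule and was 0.76 after scaling. The controls themselves were 0.66 apart, and against the day 1 control the difference was 0.33. Sesn2, which restrains the growth kinase mTORC1 when leucine is low (chr4:132048722-132066371), stood at 4.70 and 5.41 FPKM in the controls and 8.95 in day 5 DTA. Its difference of 0.63 was not called and was 0.42 after scaling. An annotated gene, Gm12981, overlaps Sesn2 by 6089 bases on the same strand.

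Trib3 and Chac1, often used as readouts of ATF4 activity, did not share these differences. Trib3, a pseudokinase that binds ATF4 and CHOP in a feedback loop (chr2:152163161-152169796), stood at 1.99 and 2.25 FPKM in the controls and 2.05 in day 5 DTA. The DTA value lies between the controls, and the difference of -0.09 was -0.25 after scaling and 0.03 against the day 1 control. Chac1, an enzyme that degrades glutathione (chr2:119176978-119180062), stood at 0.632, 0.710 and 0.871 FPKM. Its difference of 0.13 was 0.02 after scaling. Chac1 rests on few fragments, about 76.6 at day 1 and about 41.2 in each day 5 library. At this depth the authors' intervals for Chac1 ran from 0.455 to 0.960 FPKM in the day 5 control and from 0.559 to 1.18 in day 5 DTA, and they overlap.

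A match to the composite element in the promoter window searched did not divide the 10 genes by their difference at day 5. Sequence outside this window was not searched, so genes without a match may hold the element elsewhere. The 5 genes with a match ran from -0.09 (Trib3) to 3.20 (Atf3), with a median of 0.99. The 5 without a match in the window ran from 0.54 (Atf5) to 2.28 (Atf4), with a median of 0.96. Atf3, Nupr1 and Chac1, which share the same 8 letters, differed by 3.20, 2.40 and 0.13.

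**Figure D2:**
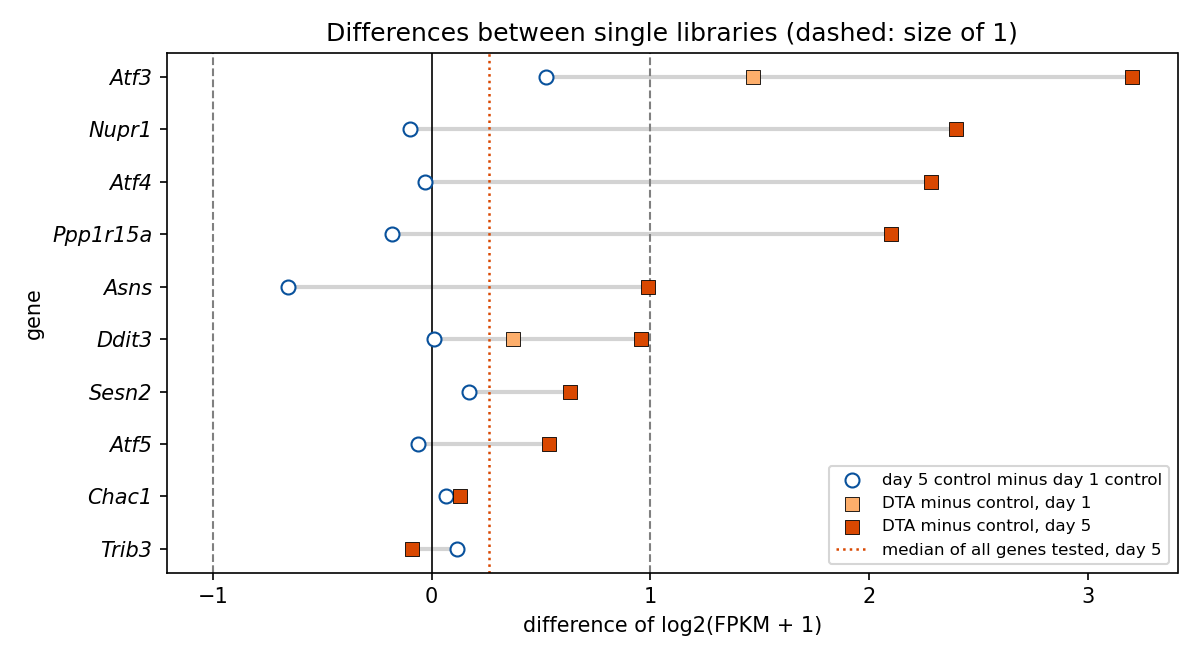
Difference of log2(FPKM + 1) for each gene: day 5 control minus day 1 control (open circles), DTA minus control at day 1 (pale squares, Atf3 and Ddit3) and at day 5 (dark squares), with dashed lines at a size of 1 and a dotted line at the median of all genes tested at day 5 (0.26). Atf3, Nupr1, Atf4 and Ppp1r15a lie from 2.1 to 3.20, Asns and Ddit3 just under 1, and Chac1 and Trib3 below the dotted line.

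At day 1 only Atf3 and Ddit3 can be compared. Atf3 was called higher in DTA, at 8.16 against 2.30 FPKM, a ratio of 3.54 and a difference of 1.47. Ddit3 was not called, at 53.2 against 40.9 FPKM (ratio 1.30, difference 0.37). Of the 2623 genes tested at day 1, 2.06% were called higher and 0.61% lower, and their median difference was 0.05. The Atf3 call is not secure: against the day 5 control the difference was 0.95, and with a pseudocount of 5 it was 0.85.

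Both genes had larger differences at day 5 than at day 1. The day 5 difference minus the day 1 difference was 1.73 for Atf3, which met the size rule, and 0.59 for Ddit3, which did not. Over the 2777 genes tested in all 4 libraries, 3.02% met that rule upwards and 2.52% downwards, that is 84 higher and 70 lower, and after median ratio scaling 64 higher and 87 lower. The median over these genes was 0.22. From day 1 DTA to day 5 DTA the level of Atf3 was 5.24-fold higher and that of Ddit3 1.52-fold higher. No difference between the days was tested, since each group is 1 library.

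The genes whose profile over the 4 libraries was most like that of each gene were found by Euclidean distance over 3 differences (DTA minus control at day 1, at day 5, and between the controls), among 2456 other genes with 5 FPKM or more in a library. For Atf3 the nearest were Gfap, the intermediate filament of reactive glia (distance 0.47), Lad1, a basement membrane anchor protein (0.56), and the interferon-inducible GTPase genes Igtp (0.71), Irgm1 (0.77) and Irgm2 (0.84). Gfap read 4.66 and 6.85 FPKM in the controls of day 1 and day 5, and 20.7 and 68.5 in the DTA libraries. For Ddit3 the nearest were Phlda1 (0.0428), Trmt61a (0.0807), Mrpl38 (0.0839), Phf3 (0.0844) and Cdk13 (0.0934). The distances were shorter for Ddit3, whose differences were smaller, than for Atf3. They were not scaled for how many genes have differences of similar size. Only genes in the short day 1 DTA table could be candidates, and small RNA and clone-named genes were left out.

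**Figure D3:**
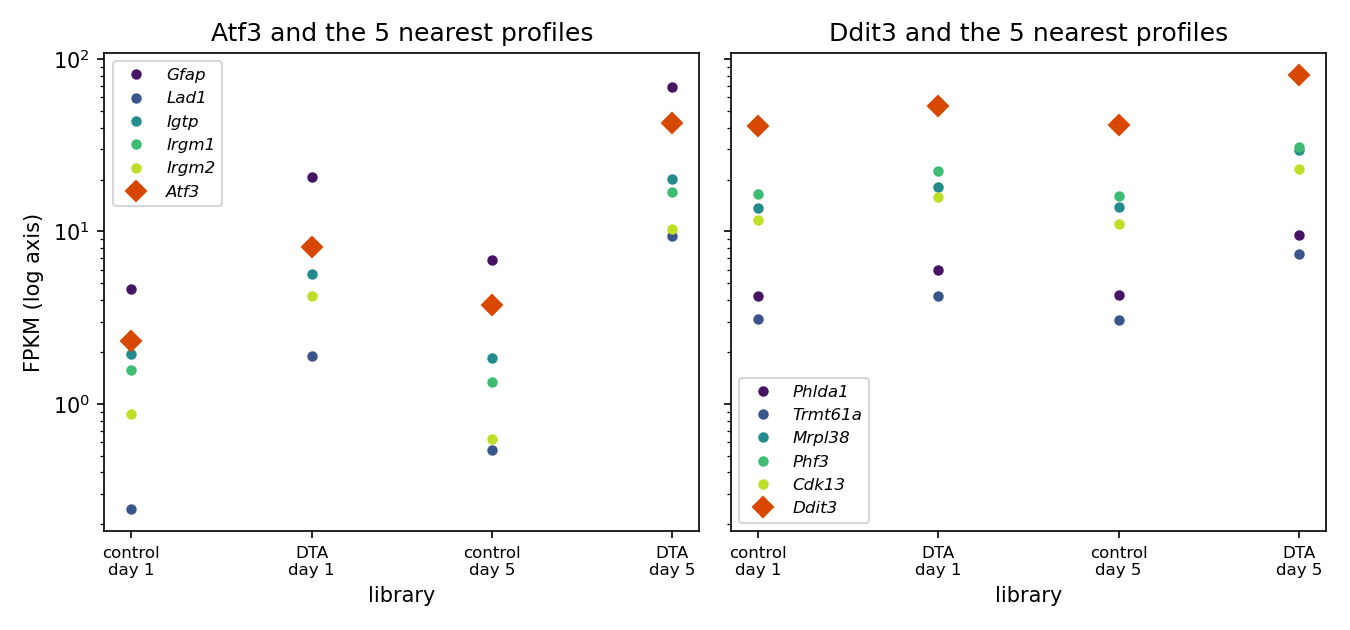
FPKM (log axis) of Atf3 (left) and Ddit3 (right, both as diamonds) and of the 5 genes with the nearest profiles (dots) in the 4 libraries. In both panels the day 5 DTA library is the highest for the gene shown as a diamond, at 42.7 FPKM for Atf3 and 81.0 for Ddit3.

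The other genes of the pathway were read in 5 lists by role. Among the 13 genes of the eIF2 switch at day 5, 1 was called higher and none lower, with a median difference of 0.58. That is 1 of the 12 that reached 5 FPKM, close to the 6.74% called higher over all genes tested. The called gene was Eif2ak3, which encodes PERK, the kinase of the endoplasmic reticulum, at 9.03 and 8.76 FPKM in the controls and 25.4 in day 5 DTA (difference 1.44, and 1.21 after scaling). Of the other eIF2 alpha kinases, Eif2ak2, the double-stranded RNA sensor PKR, differed by 1.36 but reached only 3.79 FPKM. Eif2ak4, the amino acid sensor GCN2, differed by 0.44 and Eif2ak1, the heme-regulated kinase, by 0.31.

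Of the 20 cytosolic aminoacyl-tRNA synthetases, which charge tRNAs and include known ATF4 targets, 2 were called higher and none lower, where 6.74% of all genes tested were called higher. After scaling 1 of the 20 was called, where 419 of 9717 genes were. All 20 differences lay above 0, as did 74.6% of all genes tested, and the median was 0.69. Tars stood at 11.4 and 10.6 FPKM in the controls and 27.1 in day 5 DTA (difference 1.27, and 1.05 after scaling). Aars stood at 29.7, 32.6 and 67.8 FPKM (1.03), a call that ended under scaling (0.80) and with a pseudocount of 5 (0.95). Promoter entries were found for 13 of the 20. The composite element was in 5 of them, Aars, Gars, Iars, Tars and Yars, which ran from 0.71 to 1.27, and the 8 without it ran from 0.01 to 1.00. A pair of other lists had the opposite order of medians. Among amino acid genes the 3 with the element had a median of 0.38 and the 12 without it 0.50. Among the other ATF4 and CHOP targets the 3 with it had a median of 0.28 and the 12 without it 0.66. The medians with the element are those of low genes, whose changes log2(FPKM + 1) understates. They are Pycr1, at 0.0877 FPKM in day 5 control and 0.420 in day 5 DTA, and Fgf21, at 0 and 0.210 FPKM. None of the 10 matched eIF2 genes held the element, and in the IRE1 and ATF6 list only Herpud1 did (0.45, beside a median of 0.04 for the 16 without it). These splits used the same promoter window, so an element outside it was not seen, and they were looked at after the values were known.

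Of 20 genes for amino acid synthesis, one-carbon metabolism and transport, 2 were called, both higher, beside 6.74% of all genes tested, and the median was 0.44. Aldh18a1, the first enzyme of proline synthesis from glutamate, stood at 5.32 and 6.07 FPKM in the controls and 14.5 in day 5 DTA (1.13). Slc38a2, a neutral amino acid transporter, stood at 18.9, 18.2 and 37.5 FPKM (1.01). Neither call held under scaling (0.91 and 0.77) or with a pseudocount of 5 (0.82 and 0.87), and that of Slc38a2 also ended against the day 1 control (0.95). Only 10 of the 20 reached 5 FPKM.

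Of 17 other targets and partners of ATF4 and CHOP, 3 were called, all higher, beside 6.74% of all genes tested, and the median was 0.54. Only 11 of the 17 reached 5 FPKM and could be called. Bbc3, the cell death protein PUMA, stood at 0.858 and 0.938 FPKM in the controls and 5.69 in day 5 DTA (1.79). Cebpb, a C/EBP factor that pairs with ATF4, stood at 1.43, 1.38 and 6.78 FPKM (1.71). Its relative Cebpg stood at 7.67, 5.71 and 15.1 FPKM (1.27), a call that ended against the day 1 control (0.90). All 3 kept their calls under scaling and lost them with a pseudocount of 5, at 0.85, 0.88 and 0.91.

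None of the 20 measured genes of the IRE1 and ATF6 arms of the unfolded protein response was called at day 5. Of the 20, 18 reached 5 FPKM. Over all genes tested 6.74% were called higher and 1.77% lower, and no call among 18 genes is near these shares. The differences of the 20 went both ways, 13 above 0 and 7 below, around a median of 0.08. Of all genes tested 74.6% lay above 0, with a median of 0.26, so 0 is not the level of the background here. Above 0 lay Dnajb9 (0.52), Atf6 itself (0.50) and Herpud1 (0.45), and below 0 the folding proteins Pdia4 (-0.48) and Hsp90b1 (-0.37). The largest difference among those at 5 FPKM or more was that of Calr, the chaperone calreticulin, at 166 and 196 FPKM in the controls and 133 in day 5 DTA (-0.56). Hspa5, the chaperone BiP, differed by 0.15 and Xbp1, the factor spliced by IRE1, by -0.09. At day 1 no gene of the 5 lists was called among the 3, 7, 4, 5 and 8 measured. Of these, 3, 7, 1, 3 and 7 reached 5 FPKM. Over all genes tested at day 1, 2.06% were called higher and 0.61% lower. No list was tested against another.

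**Figure D4:**
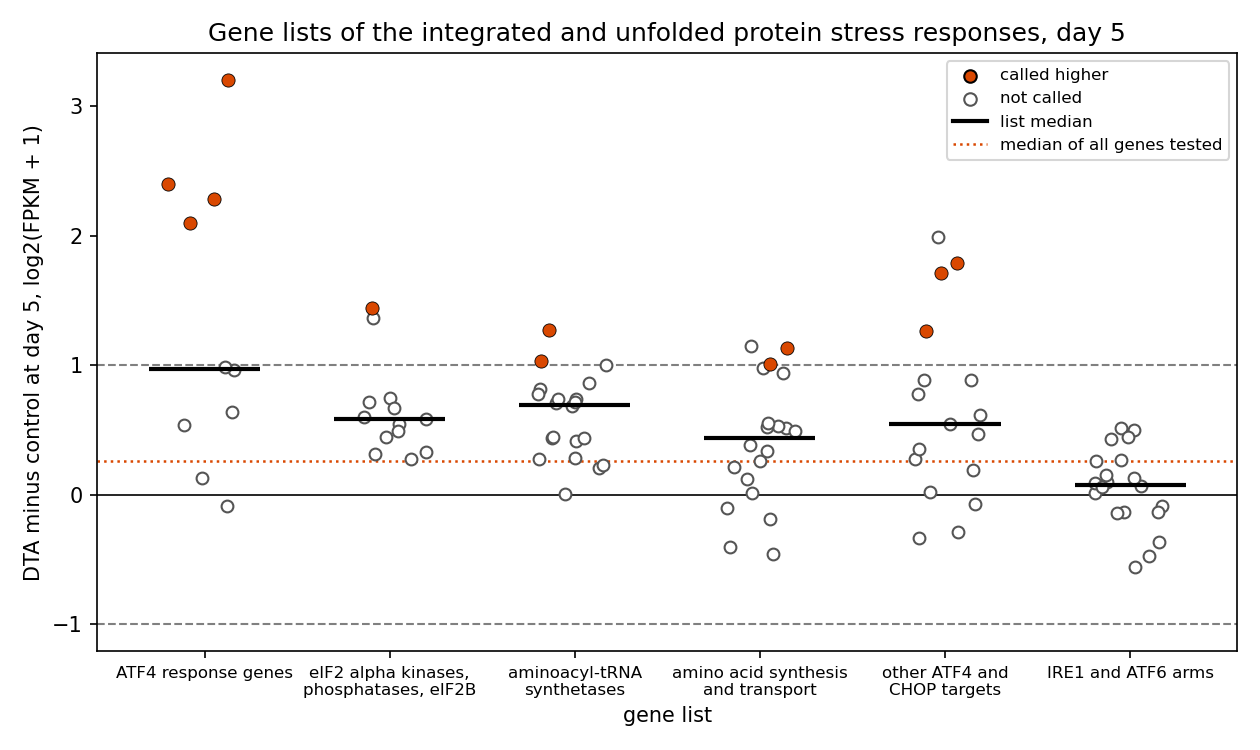
DTA minus control at day 5 in log2(FPKM + 1) for every measured gene of the 10 genes and of the 5 pathway lists; filled dots were called higher, open dots were not called, black bars are list medians and the dotted line is the median of all genes tested (0.26). The medians run from 0.97 for the 10 ATF4 response genes to 0.08 for the IRE1 and ATF6 arms, and no gene was called lower.

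The make-up of the tissue differed between the same libraries, and in bulk retina fewer cells of a type and less RNA per cell cannot be told apart. The 5 measured of 6 rod markers summed to 7191 and 9776 FPKM in the controls of day 1 and day 5 and to 2708 in day 5 DTA. Gnat1, the rod transducin, carried most of that drop, from 6678 to 739 FPKM at day 5, while Sag, the rod arrestin, was at 1559 and 1444. In all, 3 of the 5 were called lower. Of the 5 cone markers 4 were called lower, and their sum was 509, 556 and 145 FPKM. The 6 Müller glia markers summed to 1571, 1281 and 402 FPKM, of which the glutamine synthetase Glul went from 888 to 159 at day 5. Only 2 of the 6 were called lower, and Sox9 differed by 0.47. Bipolar, amacrine and ganglion cell markers had no calls. In contrast, all 3 reactive glia markers were called higher, with sums of 8.36, 13.2 and 291 FPKM. All 6 markers of microglia and macrophages were called higher, with sums of 13.3, 13.5 and 100.2 FPKM and none at 0. Of other leukocytes, 4 of 5 markers were measured, with sums of 0.171, 0.170 and 1.03 FPKM, and Cd3e was at 0 in all 3 libraries. From day 5 control to day 5 DTA the lens sum went from 151 to 9.46 FPKM, with 3 of 5 called lower, and the pigment epithelium sum from 37.5 to 16.1, with none called. Rgr (-1.22) and Ttr (-1.04) met the size and the floor but differed more between the controls (-2.17 and -1.77). Rpe65 (-1.28) was under 5 FPKM. The red blood cell sum went from 27.0 to 57.7 FPKM, with none called. The part of these changes in the levels of the 10 genes was not tested. At day 1, the 2 reactive glia markers in the DTA table summed to 6.14 FPKM in control and 31.5 in DTA, and the 2 lens markers to 221 and 524 FPKM.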

How the data were processed

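RNA-seq was done on 4 whole-retina libraries, 1 a group. The authors deposited FPKM per gene with bounds and a status. Cufflinks 2.1.1, CASAVA 1.8.2, bcl2fastq 1.8.4 and mm9 are named, without roles, per the submitters' processing notes; no source used here gives the aligner or annotation. Lines with status FAIL or HIDATA were read as missing, and loci of a symbol were summed (251 symbols). All 10 genes have 1 locus with status OK. Printed starts have 1 added, since the files count from 0. In 12 of 32 values of these genes the FPKM lay above its own upper bound, so bounds served only as an alternative and to describe Chac1. Day 1 DTA FPKM were taken as scaled over the whole library. Calls follow the size rule given with the results. Depth came from the most common low FPKM times length. All 10 genes are named. From each list, called genes up to 4 are named, otherwise the largest difference at 5 FPKM or more, with others picked after their values were seen. Genes and lists were chosen with earlier results of these data known. Of several motifs searched, 3 are given. Computations used Python 3.11.15 and pandas 2.3.3.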

Additional observations from a re-analysis of the deposited data

How the results depend on the processing

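No paired analysis was possible because each group is 1 library, and no replicate could be left out. Atf4, Atf3, Nupr1 and Ppp1r15a were called at day 5 under all 10 alternatives, with Asns added at a pseudocount of 0.1 (1.05). A lower floor, no floor and no requirement on the controls can only add calls, so they could not remove these genes. The alternative by the authors' intervals used bounds that exclude the FPKM of these genes in day 5 DTA. At day 1 the count of called genes fell to 0 with a pseudocount of 5 and against the day 5 control. The median of the 10 genes at day 5 was 0.84 with a pseudocount of 5, 0.74 with median ratio scaling, 0.78 with sum scaling and 0.84 against the mean of both controls. Of the synthetases 1 was called with a pseudocount of 5 and under both scalings, and of the amino acid genes 0 under these 3. Of the other targets 0 were called with a pseudocount of 5. With a floor of 1 FPKM or none, 2 eIF2 genes were called at day 5 and 2 pathway genes at day 1, through the lower floor itself; other causes were not tested. Over all genes at day 5, 350 were called higher with a pseudocount of 5 and 419 with median ratio scaling, against 667. At day 1, 35 were higher with a pseudocount of 5 and 85 higher and 10 lower against the day 5 control, 7 lower against the mean of both controls, and 34 lower when the controls set no limit, against 54 and 16. For the day 5 minus day 1 differences, 55 were higher with a pseudocount of 5 and 127 with a floor of 1 FPKM (128 with none), against 84.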

Other observations

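Several pathway genes differed by 1 or more under the floor of 5 FPKM and were picked after their values were seen. Gdf15, a secreted stress cytokine, stood at 0.179 and 0.203 FPKM in the controls and 3.77 in day 5 DTA (1.99). Slc7a3, a cationic amino acid transporter, stood at 0.696, 0.577 and 2.48 FPKM (1.14). At day 1, Stc2, a secreted glycoprotein of the stress response, read 1.25 FPKM in control against 3.56 in DTA (1.02), and at 0.770 and 2.26 FPKM at day 5. Fam129a read 3.29 FPKM in control at day 1 and 0.665, 0.751 and 0.662 in day 1 DTA, day 5 control and day 5 DTA, so the day 1 control is the library that stands apart. Ddit4, an inhibitor of mTORC1, did not stand higher in DTA: it was at 64.3 and 39.6 FPKM at day 1 and at 46.4 and 36.7 FPKM at day 5, control before DTA.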
